A study of Mus musculus with 59 samples.

Results

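On day 10 of reprogramming, the list of CTCF sites was longer in cells with added Ctcf than in control cells and held almost all of the control sites. The comparison set the CTCF peaks of mouse cells that received the OSKM factors (Oct4, Sox2, Klf4 and c-Myc) against those of cells that received OSKM and a Ctcf vector. It used 4 of the 59 samples of the series, 2 ChIP samples of the control and 2 with added Ctcf, and each pair is represented by 1 deposited peak list. A peak was counted as shared when it overlapped a peak of the other list by at least 1 bp. Of the 52252 peaks with added Ctcf, 43213 were shared and 9039 were found only with added Ctcf, which is 17.3% of that list (17.0 to 17.6). Of the 43356 control peaks, 143 were found only in the control, which is 0.33%.

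The starting cells of both groups were OG2 mouse embryonic fibroblasts, which carry a green fluorescent reporter of Oct4, at passage 2. As the protocols describe it, both groups were infected with retroviruses for OSKM and then grown in embryonic stem cell medium with leukemia inhibitory factor, inhibitors of MEK and GSK3, and vitamin C. The added-Ctcf group also received a pMXs-CTCF retrovirus, and the labels call the other group OSKM control without naming a control vector. Cells were taken on day 10 and are labelled as reprogramming cells with no sort, so a list can mix sites of cells at different stages. The same CTCF antibody is given for both groups. Peak lists hold no expression values, so neither the level of Ctcf nor the identity of the cells could be checked. The labels do not say whether the 2 samples of a group came from separate cultures.

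The remaining lists served as references. Control lists with an shRNA against luciferase came from a doxycycline-inducible lentiviral OSKM system, in day 0 cells, Thy1+ cells (days 3 and 9), SSEA1- Thy1- and SSEA1+ cells (days 6 and 9) and day 12 Oct4-GFP+ cells. The same populations had lists with an shRNA against Ctcf. Wild-type and Smarca5 knockout embryonic stem cells (ESCs) of the line E14Tg2a had CTCF lists from 1 sample each. SMARCA5 was mapped in ESCs through an overexpressed Flag-biotin-tagged protein. One more day 10 list came from 1 sample that received a Smarca5 shRNA beside OSKM and Ctcf.

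CTCF binds DNA through a row of zinc fingers that read a long, GC-rich motif, and together with the ring-shaped cohesin complex it sets the ends of chromatin loops. Many of its sites are occupied in nearly all cell types, while others are cell-type specific and sensitive to DNA methylation and nucleosomes. SMARCA5 (SNF2H) is an ATPase of the ISWI family, whose complexes slide nucleosomes. In reprogramming, fibroblast genes are switched off, epithelial genes come on early, and the pluripotency network of Oct4, Sox2 and Nanog comes on late.

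Examples of sites at promoters, the minority of peaks for which sequence was at hand, are printed first. A promoter window is the RefSeq sequence (GRCm38.p6) from 250 bases before to 50 after a transcription start. Such a start can lie inside the span of its gene, as at Wapl and Hoxc4 below. The first set is the part of the window inside an added peak, up to 30 bases past the start, for 3 genes of the lists described below, with a peak in both day 10 lists at Twist1, a mesenchymal transcription factor, for comparison. Fgf4 is a growth factor of the pluripotent epiblast, Wapl takes cohesin off chromatin, and Hoxc4 is a patterning gene. Stretches are on the strand of the gene, at chr7:144861380-144861415 (plus, Fgf4), chr14:34673856-34673957 (plus, Wapl), chr15:103034145-103034424 (plus, Hoxc4) and chr12:33957578-33957700 (plus, Twist1). Capitals mark the relaxed CTCF core letters, which are CC, any 3 bases, AG, any 2 bases and GGC, read on either strand, and were found in Hoxc4 among these 4.
Fgf4: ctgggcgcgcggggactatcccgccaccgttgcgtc
Wapl: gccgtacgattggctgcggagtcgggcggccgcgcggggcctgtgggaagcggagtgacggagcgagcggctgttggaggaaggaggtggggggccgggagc
Hoxc4: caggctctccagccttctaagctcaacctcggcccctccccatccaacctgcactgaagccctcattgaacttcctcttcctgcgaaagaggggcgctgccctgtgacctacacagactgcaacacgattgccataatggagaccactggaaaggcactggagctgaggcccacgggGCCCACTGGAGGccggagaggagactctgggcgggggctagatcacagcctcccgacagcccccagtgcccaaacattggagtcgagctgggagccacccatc
Twist1: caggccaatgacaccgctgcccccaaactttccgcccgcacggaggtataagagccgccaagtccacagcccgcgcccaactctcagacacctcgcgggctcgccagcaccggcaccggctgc

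The second set shows the strict CTCF core letters in capitals, which are CC, any base, C, any base and AGGGGGC, read on either strand, with 14 bases on each side. These letters were found in 8 of 1257 promoter windows that held an added peak, and the 5 that lay with these flanks inside the peak and at most 30 bases past the start are printed. They lie at chr4:48540358-48540397 (plus, Msantd3), chr9:62537081-62537120 (minus, Coro2b), chr10:96616836-96616875 (plus, Btg1), chr11:49243962-49244001 (plus, Mgat1) and chr11:59787707-59787746 (minus, Pld6). Btg1 is an antiproliferative factor, Mgat1 builds N-glycans, Coro2b is a coronin that binds actin, and Pld6 is a mitochondrial phospholipase of the piRNA pathway. The last 4 are the first matches of this kind under shared peaks along the genome, all on chromosome 1, at chr1:52630608-52630647 (plus, Nemp2), chr1:65112187-65112226 (plus, Gm36358), chr1:91366355-91366394 (plus, Erfe) and chr1:92648941-92648980 (minus, Otos). The 4 shared peaks at these promoters were held by 6 of 6 control reference lists, and the added peaks by 0 (Msantd3), 4 (Coro2b), 4 (Btg1), 5 (Mgat1) and 1 (Pld6).
Msantd3: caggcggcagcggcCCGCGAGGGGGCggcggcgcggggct
Coro2b: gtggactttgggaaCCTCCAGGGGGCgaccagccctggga
Btg1: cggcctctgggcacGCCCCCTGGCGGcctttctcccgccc
Mgat1: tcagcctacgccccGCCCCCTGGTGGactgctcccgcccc
Pld6: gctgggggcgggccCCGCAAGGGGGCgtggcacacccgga
Nemp2: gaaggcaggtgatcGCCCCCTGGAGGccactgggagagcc
Gm36358: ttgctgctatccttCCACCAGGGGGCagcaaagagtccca
Erfe: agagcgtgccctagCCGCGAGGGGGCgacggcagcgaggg
Otos: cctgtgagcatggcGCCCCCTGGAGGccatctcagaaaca

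Each list gives intervals of 400 bp whose deposited score is 0 in every line, so a peak is either listed or not. A site absent from the control list cannot be told apart from one bound below the threshold of the peak caller, and the sources used here give no library depth. With 1 list per group there is no replicate check, and no p-value is given. Intervals in parentheses are 95% intervals (Wilson for a share, Newcombe for a difference of shares) that cover counting error only. The 3 day 10 lists use one set of coordinates: every peak that the Smarca5 shRNA list held had the same start in the lists compared. Of the 9039 added peaks, 8456 were in the Smarca5 shRNA list (93.6%, 93.0 to 94.0), against 42899 of 43213 shared peaks (99.3%, 99.2 to 99.3). That list also comes from cells with added Ctcf but from another sample. With one set of coordinates, it is not shown to be an independent call. Added peaks were spread over the chromosomes, at 15.3% of the added-Ctcf list on chromosome 7 and 19.3% on chromosome 3, the lowest and highest autosomes. On the X chromosome they were 15.0% of the list (13.0 to 17.3).

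The added peaks were mostly sites that CTCF occupied elsewhere in the series, though in few of the lists. The median added peak was held by 2 of the 6 control reference lists, the median shared peak by 6 and the median control-only peak by 0. Sites present in all 6 made up 57.4% of the shared peaks (24822) and 4.35% of the added peaks (393). The most frequent pattern among the added peaks was presence in wild-type ESCs and in no other control list, with 1708 peaks (18.9%), against 1560 shared peaks (3.61%). Next came absence from all 6 (1545 peaks, 17.1%) and presence in all but day 0 (1210 peaks, 13.4%). Across the 12 CTCF lists outside day 10, Ctcf shRNA and Smarca5 knockout lists included, 1175 added peaks were in none (13.0%, 12.3 to 13.7), against 672 shared peaks (1.56%, 1.44 to 1.68).

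The reference lists differed in how many added peaks they held. Sorted and reporter-positive control populations held between 35.6% (day 12 Oct4-GFP+) and 48.2% (Thy1+) of the added peaks, with 38.0% in SSEA1- Thy1- cells and 38.4% in SSEA1+ cells. For shared peaks the same 4 lists ranged from 83.0% to 87.9%. The difference, added minus shared, was -39.7 points in Thy1+ cells (-40.8 to -38.6) and -47.5 in day 12 cells (-48.5 to -46.4). The Thy1+ list (52800 peaks) and the day 12 list (53043 peaks) are close in length. The day 3 samples of the Thy1+ group carry conflicting labels: their titles assign the control and the Ctcf shRNA the other way round than their other labels, and the titles were followed. The Thy1+ Ctcf shRNA list held 31.9% of the added peaks.

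Lists with Ctcf shRNA held fewer of the added peaks than their controls at each stage. The list of day 12 cells with Ctcf shRNA held 17.8% of the added peaks, against 35.6% with the control shRNA. In SSEA1+ cells the shares were 24.6% and 38.4%, in SSEA1- Thy1- cells 26.1% and 38.0%, and in day 0 cells 3.48% and 7.43%. All Ctcf shRNA lists were also shorter than their controls, in day 12 cells 35803 against 53043 peaks. Of the shared peaks, SSEA1+ cells held 84.9% with the control shRNA and 79.0% with Ctcf shRNA, and day 12 cells 83.0% and 59.2%.

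**Figure D1:**
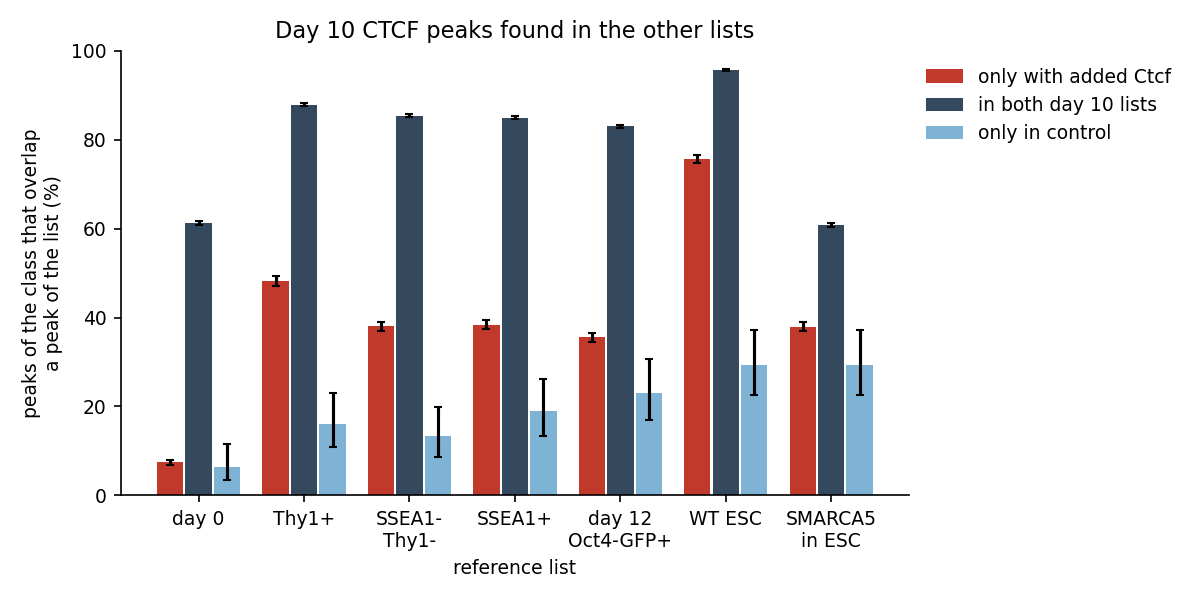
Share of day 10 peaks (y axis, %) that overlap a peak of each reference list (x axis: 6 control CTCF lists and SMARCA5 in ESCs), for peaks only with added Ctcf, in both lists and only in the control, with Wilson 95% intervals. In every list shown the added peaks are found less often than the shared ones, from 7.43% against 61.3% on day 0 to 75.6% against 95.7% in wild-type ESCs.

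Added peaks were more often restricted to one end of reprogramming than shared peaks, and by number mostly to the ESC end. Many were held at both ends. Presence in day 0 or Thy1+ cells and in day 12 cells or ESCs fitted 4032 added peaks (44.6%) and 37890 shared peaks (87.7%). Wild-type ESCs, but neither day 0 nor Thy1+ cells, held 2969 added peaks (32.8%, 31.9 to 33.8), against 3932 shared peaks (9.10%, 8.83 to 9.37). A stricter form, presence in both day 12 and ESC lists and absence from those of day 0 and Thy1+ cells, fitted 849 added peaks (9.39%) and 1790 shared peaks (4.14%). The opposite, presence in day 0 or Thy1+ cells and in neither day 12 cells nor ESCs, was rare in both classes but also more frequent among added peaks, with 381 (4.22%) against 400 (0.926%). The ESC list is the longest control list (83173 peaks) and the day 0 list the shortest (28838), and the part of list length in these shares was not tested. Seen from the reference lists, added peaks made up 8.22% of the wild-type ESC list and 2.33% of the day 0 list.

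Added peaks lay at gene starts more often than shared peaks. On the 20 chromosomes with promoter windows in the RefSeq table, 1002 of 8774 added peaks overlapped a promoter window (11.4%, 10.8 to 12.1), against 2718 of 41935 shared peaks (6.48%, 6.25 to 6.72). The difference was 4.94 points (4.25 to 5.66), a ratio of 1.76. Within 1 kb of a start lay 18.9% of the added and 10.9% of the shared peak centres. The median distance to a start was 16.1 and 17.5 kb, so the bulk of both classes was distal. Added peaks also lay more often inside a protein-coding gene (62.8%, 61.8 to 63.8) than shared peaks (55.1%, 54.7 to 55.6). Whether these positions are exonic or intronic was not analysed here, because the table holds spans only.

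That promoter excess was not seen between peaks of equal recurrence, the number of the 6 control reference lists that hold a peak. Among peaks in none of them, 16.8% of added and 15.5% of shared peaks were at promoters, a difference of 1.31 points (-1.83 to 4.32). In both classes the share was lowest among sites held by 5 or 6 lists, at 2.18% and 2.11% for added peaks and 4.36% and 4.75% for shared peaks. There the difference was reversed, at -2.18 points (-2.99 to -1.15) and -2.64 points (-3.71 to -0.620). When shared peaks were given the recurrence of the added ones, 11.9% were at promoters, and the difference became -0.511 points. No interval was computed for this value, which averages over differences of both signs.

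**Figure D2:**
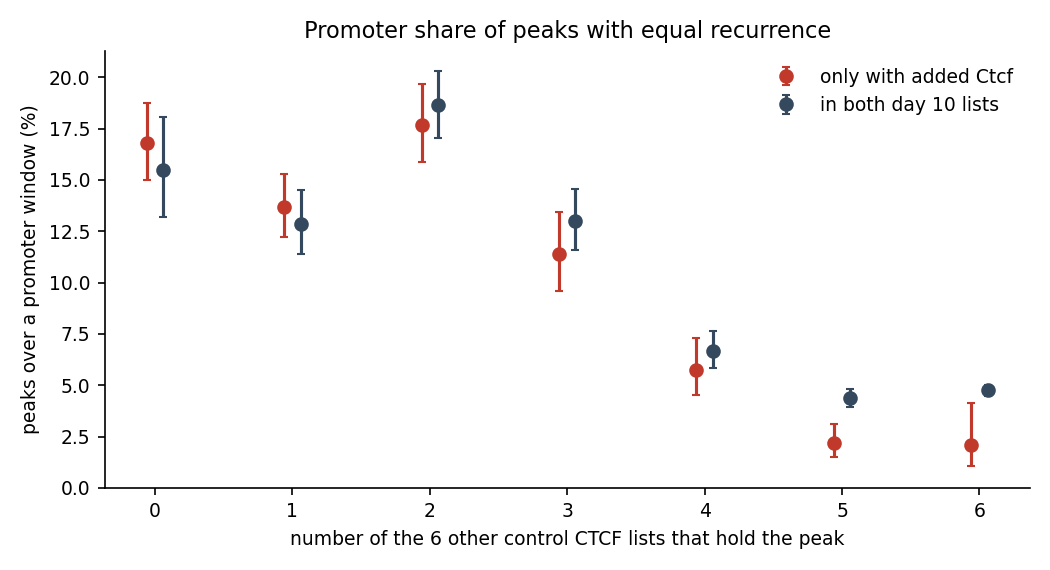
Share of peaks over a promoter window (y axis, %) by the number of the 6 control reference lists that hold the peak (x axis), for added and shared peaks, with Wilson 95% intervals. Intervals of both classes overlap from 0 to 4 lists, and the added peaks lie lower at 5 and 6 lists. From 0 to 4 lists the added peaks range from 17.7% at 2 to 5.76% at 4, without a steady decline.

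Around a start, the classes peaked on different sides. In bins of 200 bp, the fullest bin of the added peaks was the one just downstream of the start, with 446 peaks (5.08% of the class), while that of the shared peaks was just upstream, with 1210 (2.89%). Of the peaks centred within 1 kb of a start, 1031 of 1656 added peaks lay downstream (62.3%, 59.9 to 64.6), against 2234 of 4578 shared peaks (48.8%, 47.4 to 50.2), a difference of 13.5 points (10.7 to 16.2). This too moved with recurrence: among peaks held by 0 to 2 control lists the shares were 65.9% and 70.3%, a difference of -4.39 points (-7.97 to -0.797). For peaks in 3 to 6 lists they were 50.1% and 40.2%, a difference of 9.98 points (4.71 to 15.2). Of the 295 members of the gene lists below, 162 have a promoter window, and distances to an own start were available for these only. Near them, 17 added peaks were centred within 1 kb of a RefSeq start of the member, 14 downstream and 3 upstream. Examples are Fgf4 (194 bp), Tgfbr2 (197 bp), Tet1 (350 bp) and Pou5f1 (672 bp) downstream, and Smc1a (-512 bp) and Hoxc4 (-135 bp) upstream. The starts used for Pou5f1 and Hoxc4 lie well inside the gene's span, so these peaks are not at its outer end.

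**Figure D3:**
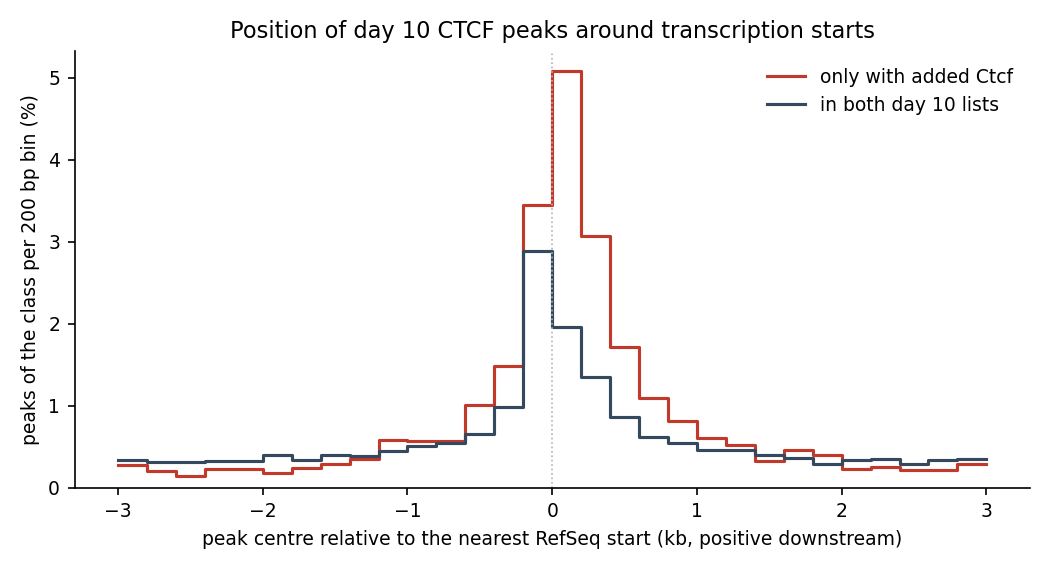
Position of peak centres relative to the nearest RefSeq start (x axis, kb, positive downstream) as a share of each class per 200 bp bin (y axis, %). The added peaks reach 5.08% in the first bin downstream of the start, and the shared peaks reach 2.89% in the first bin upstream.

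Added peaks over a promoter window and the other added peaks differed in how often most reference lists held them. The others include peaks near a start but off the window. In the Thy1+ control list the shares were alike, with 47.5% of promoter and 48.3% of other added peaks, a difference of -0.771 points (-4.04 to 2.52). The day 3 labels of this group conflict, as given above. The Thy1+ list with Ctcf shRNA held 21.1% and 33.4%, a difference of -12.3 points (-15.0 to -9.51). The day 0 control list held 1.90% and 8.12%. In SSEA1+ cells 9.08% of promoter added peaks were present (91 of 1002) against 42.1% of the others, a difference of -33.0 points (-35.0 to -30.8). SSEA1- Thy1- cells showed the same direction with 12.3% and 41.2%, and day 12 cells with 21.2% and 37.5%. In ESCs 67.5% of promoter and 76.5% of other added peaks were present. Shared peaks differed in the same direction in SSEA1+ cells (59.5% at promoters, 86.7% elsewhere) and less in Thy1+ cells (85.6% and 88.1%). The lists themselves differ in their promoter share, from 3.52% in SSEA1+ cells to 6.57% in Thy1+ cells, 6.49% in the day 10 control and 7.34% with added Ctcf, and the part of this in the contrast was not tested.

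SMARCA5 showed the reverse. In ESCs it was present at 72.6% of the promoter added peaks (727 of 1002) and at 33.6% of the other added peaks, a difference of 39.0 points (36.0 to 41.9). At shared peaks the shares were 85.4% and 59.2%. Over all places SMARCA5 lay at 37.9% of the added and 60.8% of the shared peaks, a difference of -22.9 points (-24.0 to -21.8). The SMARCA5 list is also the one with the highest promoter share, at 10.4%. The list of cells with Smarca5 shRNA held 85.8% of the promoter added peaks and 94.5% of the others, a difference of -8.66 points (-11.0 to -6.57), from 1 sample.

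**Figure D4:**
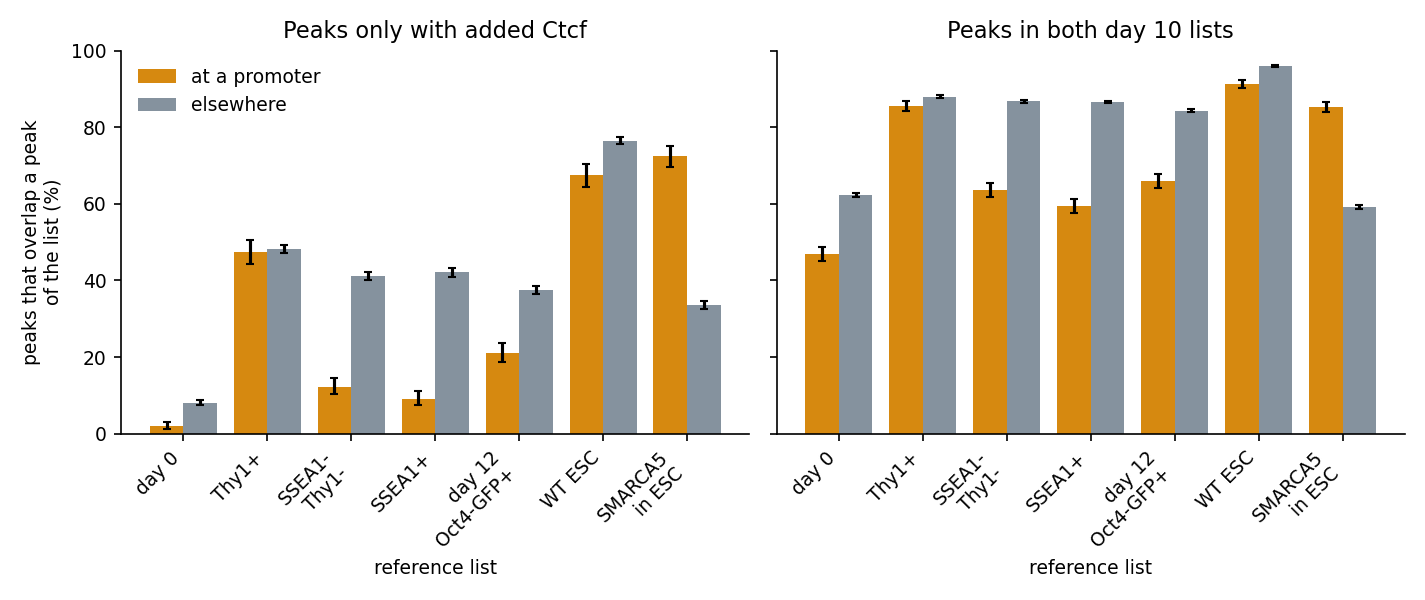
Share of promoter peaks and of peaks elsewhere (y axis, %) that overlap a peak of each reference list (x axis), for added peaks at the left and shared peaks at the right, with Wilson 95% intervals. Promoter added peaks are as frequent as the others in the Thy1+ control list, scarce in SSEA1+ cells (9.08%) and more frequent than the others for SMARCA5 (72.6%).

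Promoters with an added peak held the strict core letters printed above less often than those with a shared peak and more often than those without a peak. The strict letters were in 8 of 1257 such windows (0.636%, 0.323 to 1.25), in 140 of 3208 windows with a shared peak (4.36%, 3.71 to 5.13) and in 27 of 28372 windows without a peak (0.0952%, 0.0654 to 0.138). Relaxed letters, which include every strict match, were in 15.8%, 27.3% and 6.16% of these windows. Over all 32851 windows, with or without a peak, the shares were 0.539% and 8.61%. Mean GC content was 65.0% under added peaks, 62.7% under shared peaks and 52.3% in windows without a peak, and the mean number of CpG dinucleotides was 26.2, 23.0 and 10.6 per window. Within windows of 60 to 70% GC, 5 of 514 held the strict letters under added and 56 of 1232 under shared peaks (0.973% and 4.55%). By recurrence, the shares lay close for peaks held by 0 to 2 lists (0.507% and 0.766%). Most strict matches under shared peaks were at those held by 5 or 6 lists (127 of 1730 windows, 7.34%), against 1 of 47 windows under added peaks. In that group relaxed letters were in 19.1% of windows under added peaks (10.4 to 32.5) and 35.3% under shared peaks (33.1 to 37.6). A window covers only part of a 400 bp peak, and no match says only that these letters are not in it.

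Added peaks lay slightly farther from a shared peak than shared peaks did from each other. The nearest shared peak was at a median of 13.5 kb from an added peak and 11.8 kb from a shared peak, and 7.64% and 7.85% had one within 2 kb. Of the added peaks, 65.4% had another added peak within 100 kb and 20.1% within 20 kb. Of the shared peaks, 95.3% and 67.7% had another shared peak at these distances. The shared class is larger, and the part of class size in these shares was not tested. Among windows of 100 kb, 5068 held 1 added peak and 2 held 6. One of these, chr2:156100001-156200000, spans Phf20, a reader of methylated lysine, the splicing factor gene Rbm39, the mitochondrial genes Romo1 and Nfs1, Cpne1 and Rbm12, and went from 3 to 9 peaks. The other, chr3:96200001-96300000, covers replication-dependent histone genes (H2ac18 to H2ac21, H2bc18, H2bc21, H3c13 to H3c15 and H4c14) and Fcgr1, and went from 5 to 11. Of the 10 windows with 5 added peaks, the first 3 along the genome lay at Ect2, a regulator of cytokinesis, and Nceh1 on chromosome 3 (2 to 7 peaks), at Faah, Lrrc41, Nsun4, Rad54l and Uqcrh on chromosome 4 (4 to 9), and at Fndc4, Gckr, Ift172, Krtcap3, Nrbp1, Ppm1g and Zfp513 on chromosome 5 (2 to 7).

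Across the genome, 6709 of 21887 protein-coding genes had 1 or more added peaks within 10 kb of their span (30.7%). In 904 genes (4.13%) the peak was found only with added Ctcf, and 174 of these had 2 or more added peaks. The count was 288 with a window of 50 kb and 1304 inside the spans. Gse1, a chromatin-associated coiled-coil gene, and Rere, a nuclear receptor corepressor, had the most added peaks, 8 each, going from 27 to 35 and from 14 to 22 peaks. Agap1, Foxp1 (13 to 20), Mecom (7 to 14), Zbtb7c and Zfhx3 (7 to 14) had 7 each. Foxp1, Mecom, Zbtb7c and Zfhx3 code for transcription factors. Dip2b had 6, as did Gm37013 and Gm38666, predicted genes whose overlapping spans cover clustered protocadherins and share peaks. Most of these genes already had many control peaks.

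Among genes without a control peak, the neuronal RNA-binding protein gene Elavl2 and the Rab GTPase gene Rab8b had 4 added peaks each. Next, with 3 each, were Aasdh, Abhd12, BC055324, Bzw1, Ccdc151, Cd37, Csrp2 and Cyfip1. Csrp2 codes for a LIM protein of smooth muscle, Cd37 for a tetraspanin of B cells, and Cyfip1 for a subunit of the actin-regulating WAVE complex. The last 8 stand first by name among genes with 3.

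The gene lists cover 295 genes, of which 110 had an added peak within 10 kb (37.3%, against 30.7% of all protein-coding genes). The lists include long genes and gene clusters, whose members share peaks, and this comparison takes neither into account. Of the 594 added-Ctcf peaks near any member, 98 were added peaks (16.5%, 13.7 to 19.7), against 18% of the peaks near any protein-coding gene. Wild-type ESCs held 77 of these 98 peaks, Thy1+ cells 41, day 12 cells 31 and day 0 cells 2. SMARCA5 was at 50, and 10 were in none of the 12 CTCF lists outside day 10. Of the 98, 71 lay inside a member's span and 94 were in the list with Smarca5 shRNA. No member had a control-only peak, against 0.553% of all protein-coding genes.

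**Figure D5:**
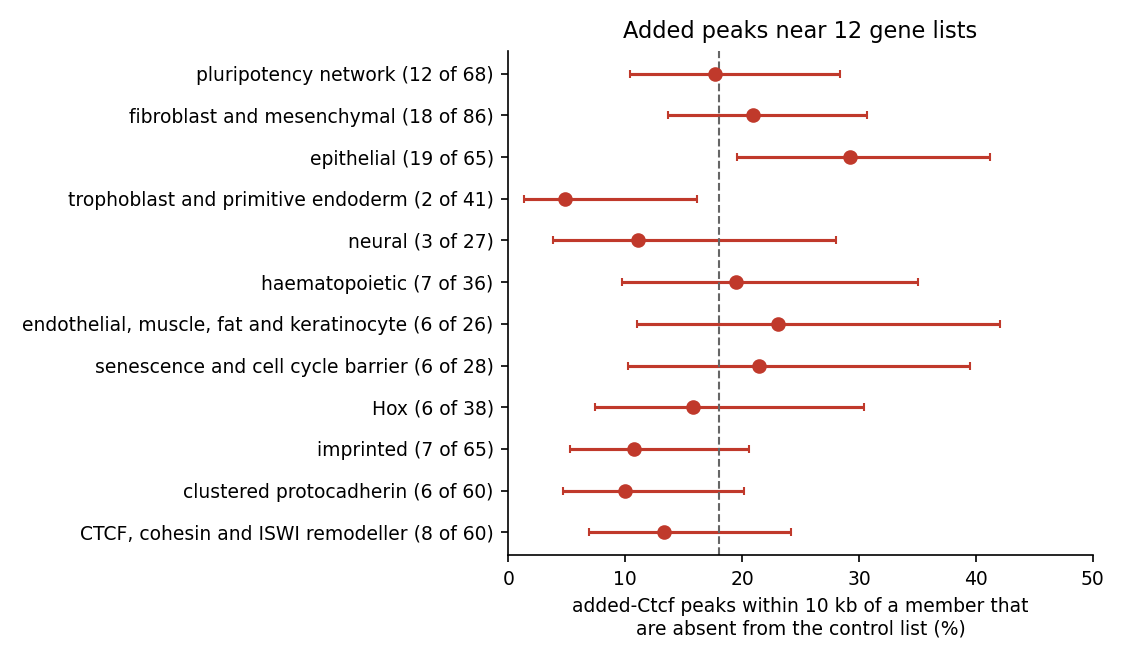
Share of the added-Ctcf peaks within 10 kb of each list's members that are absent from the control list (x axis, %), with Wilson 95% intervals and the counts in brackets. The dashed line is the share near all protein-coding genes, 18%, and the intervals of the epithelial list and of the trophoblast and primitive endoderm list do not reach it at 10 kb, but include the corresponding share at 2.5 kb, at 50 kb and inside the spans.

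Genes of the pluripotency network had 12 added peaks among 68 (17.6%, 10.4 to 28.4), close to the background. Of the 12, 11 were ESC sites, against 75.6% of all added peaks. At Pou5f1, which encodes Oct4, the control list had 2 peaks and the added-Ctcf list 3. Its added peak, chr17:35509279-35509678, lies inside the gene and was found in wild-type ESCs and in no other control list. Nanog also went from 2 to 3 peaks. Its added peak, chr6:122708824-122709223, is centred 1459 bp downstream of the start and was in the SSEA1- Thy1-, SSEA1+, day 12 and ESC control lists, but in neither the day 0 nor the Thy1+ list.

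Tet1, a dioxygenase that oxidises 5-methylcytosine, went from 4 to 7 peaks, the most added in this network. One of the 3, chr10:62886774-62887173, is centred 350 bp downstream of the start and was in none of the 12 lists, while another, chr10:62874845-62875244, was in 5 of 6 control lists. Tbx3, a T-box factor of naive ESCs, went from 3 to 5. Nr0b1, a nuclear receptor of the ESC network, was the member with a peak only with added Ctcf, at chrX:86192586-86192985. That peak was in the SSEA1- Thy1-, SSEA1+, day 12 and ESC control lists, with SMARCA5 in ESCs. The Fgf4 peak printed in part above, chr7:144861380-144861779, was in the ESC list alone of the 6.

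Fibroblast and mesenchymal genes had 18 added peaks among 86 (20.9%, 13.7 to 30.7), a share whose interval includes the background. Thy1+ cells held 10 of these 18, day 12 cells 3 and ESCs 14, against 48.2%, 35.6% and 75.6% of all added peaks. Pdgfrb, a growth factor receptor of mesenchymal cells, went from 5 to 7 peaks. The hyaluronan receptor gene Cd44 went from 1 to 3, the cytokine gene Tgfb1 from 3 to 5, and its receptor gene Tgfbr2 from 3 to 5. The start-proximal peak of Tgfbr2, chr9:116174966-116175365, was in the Thy1+ and ESC control lists. At Thy1, the fibroblast surface marker, the peak found only with added Ctcf, chr9:44052870-44053269, lies 4291 bp outside the span and was an ESC site absent from the Thy1+ list.

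The epithelial list had the highest share of added peaks, 19 of 65 (29.2%, 19.6 to 41.2). That place held at 10 kb and 50 kb only. Within 2.5 kb the share was 27.1% (16.6 to 41.0), where the endothelial, muscle, fat and keratinocyte list had 29.4%. Inside the spans it was 23.3% (13.2 to 37.7), where the haematopoietic list had 29.2%. At 50 kb the epithelial share was 21.5% (15.6 to 28.7). The shares near all protein-coding genes at these 3 settings were 18.8%, 19.2% and 17.2%, each inside the interval. No test was made of the list's place among the 12, and 14 of its 19 added peaks belong to 5 genes. Dsp, the desmosomal plaque gene, went from 2 to 6 peaks. One of its added peaks, chr13:38151763-38152162, is centred 669 bp downstream of the start and was in neither the Smarca5 shRNA list nor any of the 12 lists outside day 10. Cdh1, which encodes E-cadherin, went from 3 to 6. The peak at the edge of its span, chr8:106603336-106603735, was in the day 12 and ESC control lists alone of the 6, with SMARCA5 in ESCs. Ocln, a tight-junction gene, went from 1 to 4, and Tjp1, a scaffold of the same junctions, from 6 to 8. Cldn6, a claudin, had its peak only with added Ctcf, at chr17:23676047-23676446, 2902 bp outside the span, and it was in the Thy1+ and ESC control lists. Day 12 cells held 9 of the 19 epithelial added peaks, Thy1+ cells 4 and ESCs 14, against 35.6%, 48.2% and 75.6% of all added peaks.

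Lists of other lineages gave shares on either side of the background. Trophoblast and primitive endoderm genes had 2 added peaks among 41 (4.88%, 1.35 to 16.1), at Ascl2, which is needed in the trophoblast, and at Tead4. Within 2.5 kb the share was 6.25% (1.73 to 20.1), at 50 kb 10.7% (5.50 to 19.7) and inside the spans 7.41% (2.06 to 23.4), intervals that include the shares near all protein-coding genes. Neural genes had 3 of 27 (11.1%, 3.85 to 28.1), 2 of them at the LIM-homeobox gene Lhx2 and 1 at Neurog1. Haematopoietic genes had 7 of 36 (19.4%, 9.75 to 35.0). Runx1, which is also in the fibroblast list, went from 4 to 6, and Cd34, Kit and Gata2 had 1 added peak each. The mixed list of endothelial, muscle, fat and keratinocyte genes had 6 of 26 (23.1%, with an interval that includes the background), with 2 at Tek, an endothelial receptor, and 1 each at Cdh5, Myod1 and Cebpa.

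Genes of senescence and the cell cycle barrier had 6 added peaks among 28 (21.4%, 10.2 to 39.5). Ezh2, the methyltransferase of Polycomb complex PRC2, had no control peak and 2 with added Ctcf. The first, chr6:47594195-47594594, is centred 635 bp downstream of the start, was in the Thy1+ and ESC control lists, and was absent from the Smarca5 shRNA list. The second, chr6:47584060-47584459, was an ESC site present with Smarca5 shRNA. Trp53, Rb1 and E2f1, the genes of p53, the retinoblastoma protein and an S-phase activator, each had 1 added peak.

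Gene clusters that CTCF partitions or regulates had shares under the background at 10 kb, with intervals that include it. Inside the spans the Hox share was 23.8% (10.6 to 45.1), above the 19.2% of all protein-coding genes at that setting. The Hox genes had 6 added peaks among 38 (15.8%, 7.44 to 30.4), counted once where neighbours share them. One lay inside Hoxa3 and Hoxa4 at chr6:52191102-52191501 and one inside Hoxa10, near Hoxa9, at chr6:52232415-52232814. Both were ESC sites with SMARCA5. Hoxc13 had a peak within 10 kb only with added Ctcf, 3553 bp outside its span. Day 0, Thy1+, SSEA1- Thy1- and day 12 control cells held 0 of the 6 Hox peaks, SSEA1+ cells 1 and ESCs 4, against 7.43% (day 0), 48.2% (Thy1+), 38.0% (SSEA1- Thy1-), 35.6% (day 12), 38.4% (SSEA1+) and 75.6% (ESC) of all added peaks.

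Imprinted genes had 7 added peaks among 65 (10.8%, 5.32 to 20.6), 2 of them in Kcnq1, which houses a large imprinted domain, and 1 each at Ube3a, Grb10 and Meg3. The clustered protocadherins had 6 of 60 (10.0%, 4.66 to 20.1), and 6 of these 6 were ESC sites, against 75.6% of all added peaks. Pcdhga1, Pcdhga2, Pcdhga3 and Pcdhga4, whose spans overlap, had the same 2 added peaks, with Pcdhga1 going from 18 to 20.

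CTCF, cohesin and ISWI remodeller genes had 8 added peaks among 60 (13.3%, 6.91 to 24.2). Ctcf itself went from 3 to 4 peaks, with the added one inside the gene at chr8:105677879-105678278 and held by the Thy1+ and ESC control lists. Smc1a, a core subunit of the cohesin ring, had a peak only with added Ctcf, at chrX:152015716-152016115 and centred at -512 bp from the start, in the Thy1+, SSEA1- Thy1- and ESC control lists. Wapl had one only with added Ctcf, chr14:34673856-34674255, centred 128 bp downstream of a RefSeq start inside its span. It was found in the Thy1+ list alone of the 6. Smc3 and the cohesin subunit gene Stag1 each went from 3 to 4. In all, 7 of the 295 members had a peak only with added Ctcf (2.37%), against 4.13% of all protein-coding genes. Nr0b1 and Smc1a were the 2 of these 7 whose call held with a window of 50 kb.

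The 143 control-only peaks were found in few other lists. Of these, 77 were in none of the 12 CTCF lists outside day 10 (53.8%, 45.7 to 61.8), and 42 were in wild-type ESCs (29.4%). The Smarca5 shRNA list held 86 of the 143 (60.1%, 52.0 to 67.8), so 57 were absent from both lists of cells with added Ctcf. Of the 143, 8 lay in one stretch, chr11:3101653-3198309, where the control had 23 peaks and the added-Ctcf list 17. Sfi1, a centriole gene in this stretch, had 7 control-only and 2 added peaks (23 to 18). Of the 8 peaks, 6 were in none of the 12 lists and 6 were in the Smarca5 shRNA list. Eif4enif1 and Gm51877, its neighbours, share 2 of these peaks. Cfap43, a gene of motile cilia, and Zfp993, a zinc-finger gene, had 2 control-only peaks each, all 4 of them in the Smarca5 shRNA list. In 9 protein-coding genes the control peaks within 10 kb were all absent with added Ctcf.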

How the data were processed

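The labels name ChIP and ChIPmentation without a role per sample. The build was mm10 (GRCm38), with MACS2, HOMER, Bowtie2, Picard and SAMtools among the tools, per the submitters' processing notes. The sources used here give no versions, thresholds or pooling. The authors deposited 1 list per group, 400 bp intervals whose score is 0 throughout, so peaks could not be ranked or filtered. Input samples were not used. Peaks were compared by 1 bp overlap. Peaks within 10 kb of a RefSeq gene span (GRCm38.p6) were assigned to the gene, and promoter windows covered 20 chromosomes. All 295 list members matched by symbol, and 162 have a promoter window.

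Members and gene lists were chosen with earlier results of these data known. Named genes are, per list, those with a peak in 1 day 10 list only and the 4 with the most added peaks, and over all genes the 10 with the most added peaks, the 10 with the most and no control peak, the 5 with the most control-only peaks, and genes of the 5 fullest 100 kb windows. Promoters were found in list order, and those printed were chosen after their values were seen. Overlap code was tested on simulated data. Values were computed in Python 3.11.15 with SciPy 1.17.1 and NumPy 2.4.6, and figures drawn with matplotlib 3.10.9.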

Additional observations from a re-analysis of the deposited data

How the results depend on the processing

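No paired analysis was possible because each group had 1 list, although the labels share a replicate number. For the same reason no replicate could be left out, and with every score at 0 no stricter peak threshold could be set. Of 35 alternatives for main results, 26 stayed within the limits set and 9 moved. Each is a count or a share, which has no direction to change. Contrasts of added with shared peaks were not among them. Because the day 10 lists use one set of coordinates, reciprocal overlap and identical ends could not change the day 10 classes. Those settings are therefore no check of the classes, though they are counted among the 26. The control-only count was 57 when absence from the Smarca5 shRNA list was also required. The ESC share of added peaks was 72.4% with a reciprocal overlap of 50%, 77.3% with a distance of up to 500 bp and 78.2% for peaks also in the Smarca5 shRNA list. Of the added peaks also in the Smarca5 shRNA list, 10.5% were at promoters. Counting all genes of the table put 69.9% of added peaks inside a span. With windows of 20 kb, 20.1% of added peaks had another nearby, and relaxed letters were in 15.8% of promoters. Genes with a peak only with added Ctcf were 288 with a 50 kb window. The comparisons by recurrence, by GC class and with the Smarca5 shRNA list for promoters were chosen after seeing the data.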
